A study of Drosophila melanogaster with 4 samples.

Results

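The ZIP metal importer family of Drosophila melanogaster was examined in RNA from female guts. Its members were taken as the genes whose current FlyBase symbol is Zip42C.1, Zip42C.2, Zip48C, Zip71B, Zip88E, Zip89B, Zip99C, Zip102B, Catsup or foi. All 10 were among the 13932 genes of the deposited table. The flies were of Oregon R-C, a wild-type laboratory strain, and were reared on a chemical diet in 2 versions, with no manganese added or with 5 ppm manganese. On each version, 10 females and 10 males laid eggs for 5 days, and their newly emerged daughters were moved to fresh food of the same version for another 5 days. There were 2 libraries from flies without added manganese and 2 from flies with 5 ppm manganese, and the design asks which transcripts respond to the lack of the metal. Following the letters of the table's columns, the libraries of each diet are named B and C. The labels name no other agent or allele for either group and do not say how many guts went into a library.

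ZIP proteins are membrane transporters that move zinc, and in some cases iron or manganese, into the cytosol, either from outside the cell or from the compartments of the secretory pathway. The ZnT proteins carry zinc the other way, out of the cytosol. In the fly gut, ZIP proteins on the surface of enterocytes take up dietary zinc, and in mammals certain family members also carry manganese, which makes the family a natural place to look when that metal is withheld. Transcript levels, not proteins or metal contents, were measured here.

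The table holds RPKM, which is reads divided by gene length and by the library's total, so levels can be compared between genes. From the whole-read steps among low values, libraries B and C had 26122210 and 26311007 reads without manganese and 24399758 and 28010955 reads with 5 ppm. In 1000 bases, 3 reads were worth 0.107 to 0.123 RPKM. The gut was well represented. Its 8 enterocyte and gut markers summed to 16081 and 13350 RPKM without manganese and 13631 and 11380 RPKM with 5 ppm. Most of each sum came from 1 trypsin gene, alphaTry, at 7381 to 10443 RPKM. The markers did not move together, 5 being higher and 3 lower without manganese. Jon65Aiii was at 3511 and 3964 RPKM without manganese and 2210 and 2026 RPKM with 5 ppm, and Npc1b at 352 and 367 RPKM against 585 and 483 RPKM. The no-manganese library C stood apart. Its 9 ovary markers, among them the vitelline membrane genes Vm34Ca and Vm26Aa, summed to 544 RPKM, against 0.4999 RPKM in library B of the same diet, and to 1.14 and 3.06 RPKM in the 5 ppm libraries. The sum of its fat body markers was also highest, at 833 RPKM, against 330 RPKM in library B of that diet and 209 and 479 RPKM with 5 ppm. Most of this sum came from the yolk protein genes Yp1, Yp2 and Yp3. Of the other markers on that list, apolpp was at 26.7 RPKM, against 24.5 RPKM in library B of that diet and 10.3 and 24.7 RPKM with 5 ppm. Lsp2 was not highest there, at 0.875 RPKM against 2.15 RPKM in the 5 ppm library C, and Fbp1 was below 1 RPKM in every library. The log2 fold change of each ZIP gene is therefore given below also without the no-manganese library C. Means, counts without overlap and the values of other metal genes are given with all 4 libraries. The part of ovary RNA in them was not tested. In whole guts, fewer cells of a type and less RNA per cell cannot be told apart.

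All ZIP genes were expressed in the gut on both diets, over a wide range of levels, and the 4 most abundant and the 2 least abundant were the same genes in every library. Zip99C had the highest mean over the 4 libraries, 63.4 RPKM, above 85.6% of the 7556 genes tested, which were those with a mean of at least 1 RPKM. Catsup followed at 55.5 RPKM, Zip42C.2 at 34.8 RPKM and Zip102B at 26.1 RPKM. Zip89B, foi and Zip48C lay close together at 13.4, 12.1 and 11.8 RPKM, and Zip42C.1 was at 8.29 RPKM. Zip88E and Zip71B were the least abundant at 4.58 and 4.41 RPKM, the last of these above 24.7% of the genes tested. Between neighbours in this order, the libraries' values did not overlap at 3 places: Catsup lay above Zip42C.2, Zip102B above Zip89B, and Zip42C.1 above Zip88E in all 4 libraries. The other neighbours overlapped, each upper one being higher in 3 of 4 libraries, so their order is not settled by these data. Zip99C and Catsup together made up 51.7% and 44.6% of the family's summed RPKM without manganese and 54.2% and 52.8% with 5 ppm. The sum over the family was 237 and 246 RPKM without manganese and 231 and 223 RPKM with 5 ppm, about 0.04% of all RPKM in every library.

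**Figure D1:**
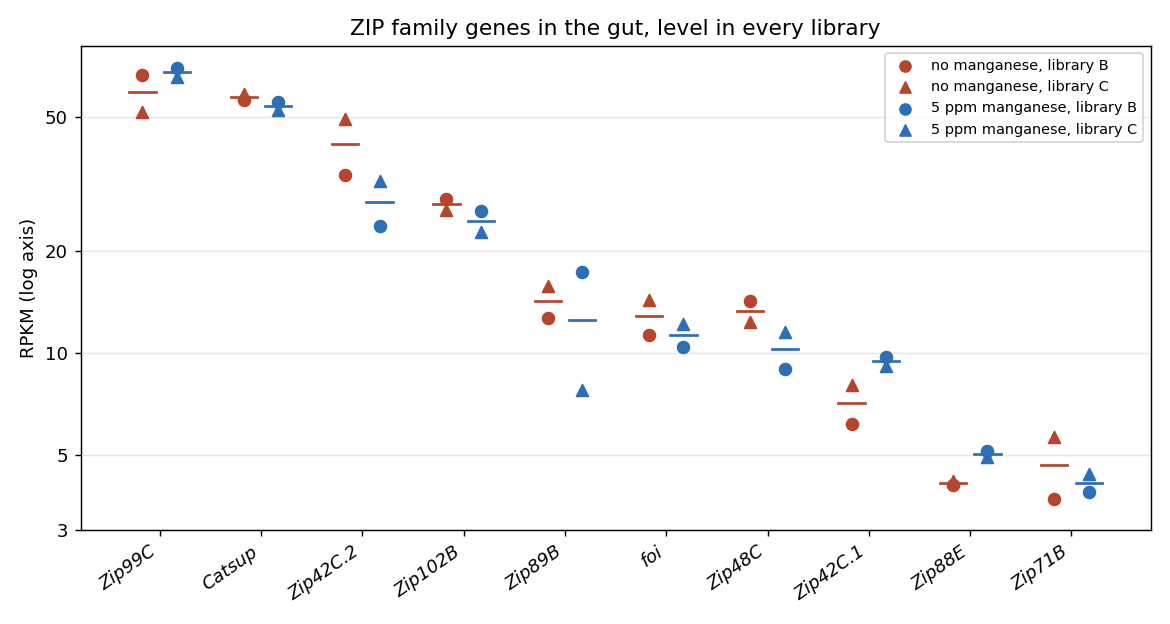
RPKM of the 10 ZIP family genes (log axis) in each library, ordered by their mean; red points are the no-manganese libraries, blue points the 5 ppm libraries, circles library B, triangles library C, and short lines the mean of each diet. The levels run from about 4 RPKM for Zip71B and Zip88E to over 50 RPKM for Zip99C and Catsup, and the spread between genes is far wider than that between diets.

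No ZIP gene passed the test between the diets. With limma on log2(RPKM + 1), fitted to all 7556 genes, 0 of 10 members had an adjusted p under 0.05 and 0 of 10 an unadjusted p under 0.05. The lowest adjusted p of a member was 0.802. Over all genes tested, 0% were called higher and 0% lower at the adjusted threshold, and 5.84% had an unadjusted p under 0.05. Those were 441 genes, of which 218 were higher (2.89% of all tested) and 223 lower (2.95%). With limma's voom on reads recovered from the RPKM, 0 members and 0 genes passed as well, and 0 members and 438 genes had an unadjusted p under 0.05. Fold changes are given as no manganese over 5 ppm on the scale of log2(RPKM + 1), which understates the difference of genes at a few RPKM. Of the members, 7 had a positive and 3 a negative log2 fold change, with a median of 0.14 (6 and 4, with a median of 0.032, without the no-manganese library C), while 56.4% of all tested genes were positive with a median of 0.024. The diets did not overlap in 6 of 10 members, against 36.9% of all tested genes. In 4 members both no-manganese libraries lay above both 5 ppm libraries (Zip42C.2, Zip48C, Zip102B and Catsup), and 21.7% of all tested genes did so. In 2 members they lay below (Zip42C.1 and Zip88E), as in 15.2% of all tested genes. In the other 4 members the diets overlapped. The labels do not say whether the 2 libraries of a diet came from different flies, so these tests measure the spread between the libraries, which may be technical.

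Zip42C.1 and Zip42C.2 encode zinc importers of the enterocyte surface that have been linked in flies to uptake of dietary zinc, and they are neighbours. Zip42C.1 (FBgn0033096) spans 6716342 to 6717707 and Zip42C.2 (FBgn0033097) 6718196 to 6719533 on the minus strand of chromosome 2R of dm6, so 488 bases separate them. Each is annotated with 1 protein-coding transcript of 2 exons, and no exon of another gene overlaps theirs. Zip42C.2 had 33.7 and 49.4 RPKM in libraries B and C without manganese, against 23.7 and 32.4 RPKM in libraries B and C with 5 ppm. Both no-manganese values were above both 5 ppm values, although the no-manganese library B exceeded the 5 ppm library C only narrowly, and their counting intervals overlapped (31.7 to 35.7 RPKM against 30.5 to 34.3 RPKM). The mean was 41.5 ± 11.1 RPKM without manganese and 28.1 ± 6.11 RPKM with 5 ppm (SD, n = 2 each). The log2 fold change of 0.54 ± 0.25 SE was the largest of the family in size and did not pass (limma, adjusted p = 0.802, 95% interval -0.11 to 1.19). With 1 library left out it ran from 0.27 (without the no-manganese library C) to 0.81 (without the no-manganese library B), and it was 0.32 without the 5 ppm library B.

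Zip42C.1 had its values on the other side. It was at 6.17 and 8.04 RPKM in libraries B and C without manganese, against 9.75 and 9.19 RPKM in libraries B and C with 5 ppm. Both no-manganese values were below both 5 ppm values. The mean was 7.11 ± 1.32 RPKM without manganese and 9.47 ± 0.400 RPKM with 5 ppm (SD, n = 2 each), a log2 fold change of -0.38 ± 0.15 SE that did not pass (limma, adjusted p = 0.802, 95% interval -0.76 to 0.0075). With 1 library left out it ran from -0.55 (without the no-manganese library C) to -0.21 (without the no-manganese library B). The ratio of Zip42C.2 to Zip42C.1, examined after their values were seen, was 5.45 and 6.14 without manganese and 2.43 and 3.52 with 5 ppm. It restates the values of both genes and, being chosen after they were seen, is given without a test.

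Zip89B, another zinc importer that has been described in the fly gut, varied most between libraries. Zip89B (FBgn0038412) lies on the plus strand of chromosome 3R from 16305758 to 16308700, with 1 transcript of 2 exons. It had 12.7 and 15.8 RPKM in libraries B and C without manganese, against 17.3 and 7.76 RPKM in libraries B and C with 5 ppm. The 5 ppm libraries held both the highest and the lowest value, so the diets overlapped completely. Those 2 values rest on 851 and 437 reads, and their 95% counting intervals of 16.2 to 18.5 RPKM and 7.05 to 8.52 RPKM do not meet, so the libraries of this diet differed by more than counting error. The log2 fold change was 0.26 ± 0.38 SE (limma, adjusted p = 0.926, 95% interval -0.73 to 1.25), the largest error of the family. It turned to -0.27 without the 5 ppm library C and was 0.79 without the 5 ppm library B and 0.12 without the no-manganese library C. ZnT77C, which encodes a zinc exporter of enterocytes, also had its lowest value in the 5 ppm library C. It had 7.90 and 15.1 RPKM in libraries B and C without manganese, against 9.35 and 5.89 RPKM in libraries B and C with 5 ppm. Its highest value was in the no-manganese library C, unlike that of Zip89B. The other ZnT genes tested, ZnT41F, ZnT49B, ZnT63C and ZnT86D, were lowest in a no-manganese library. ZnT77C was singled out after its values were seen, and a shared pattern was not tested.

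Zip71B is known in flies as a zinc importer of the Malpighian tubules, the excretory organ attached to the gut. Zip71B (FBgn0036461) lies on the plus strand of chromosome 3L from 14992289 to 14997983, with 2 transcripts. It had 3.70 and 5.64 RPKM in libraries B and C without manganese, against 3.87 and 4.40 RPKM in libraries B and C with 5 ppm. The no-manganese libraries were at once the lowest and the highest, and the diets overlapped. The log2 fold change of 0.12 ± 0.20 SE (limma, adjusted p = 0.940) turned to -0.13 without the no-manganese library C and was 0.37 without the no-manganese library B. The 8 tubule markers summed to 20.04 and 10.9 RPKM without manganese and to 15.2 and 10.1 RPKM with 5 ppm. The markers did not move together over the libraries. Uro, the urate oxidase gene, was at 1.37 and 0.211 RPKM without manganese and at 0.617 and 0.226 RPKM with 5 ppm, while SecCl was at 6.89 and 7.11 RPKM without manganese and at 6.52 and 2.65 RPKM with 5 ppm. The part of tubule RNA in the Zip71B values was not tested.

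**Figure D2:**
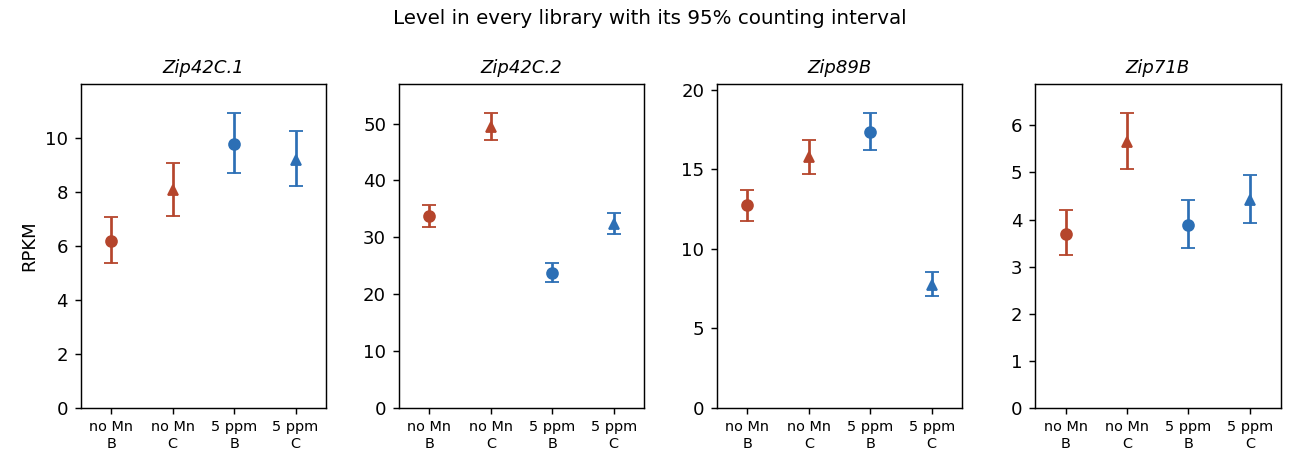
RPKM of Zip42C.1, Zip42C.2, Zip89B and Zip71B (separate linear axes from 0) in libraries B and C without manganese (red) and with 5 ppm (blue), with bars for the 95% Poisson interval of the recovered reads. Zip89B is at 17.3 and 7.76 RPKM in the libraries of the 5 ppm diet, whose bars do not meet.

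The most abundant members, Zip99C and Catsup, belong to the secretory pathway. Zip99C, the fly counterpart of mammalian ZIP13, is known in flies for moving iron into the secretory pathway. Zip99C (FBgn0039714) lies on the minus strand of chromosome 3R from 29863701 to 29868895, with 9 transcripts. It had 66.5 and 51.6 RPKM in libraries B and C without manganese, against 70.0 and 65.5 RPKM in libraries B and C with 5 ppm. Only the no-manganese library C was lower than the rest, and the diets overlapped. The log2 fold change was -0.20 ± 0.15 SE (limma, adjusted p = 0.842), and with 1 library left out it ran from -0.38 (without the no-manganese library B) to -0.024 (without the no-manganese library C).

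Catsup, the fly counterpart of mammalian ZIP7, releases zinc from the secretory pathway and was named for its restraint of catecholamine synthesis. Catsup (FBgn0002022) lies on the plus strand of chromosome 2L from 19041862 to 19043614. It had 56.1 and 58.3 RPKM in libraries B and C without manganese, against 55.2 and 52.3 RPKM in libraries B and C with 5 ppm. The no-manganese values were the higher ones, but the gap between the diets was under 1 RPKM at its narrowest. Catsup was the steadiest member, its highest library being 1.11 times its lowest, and its log2 fold change was 0.089 ± 0.10 SE (limma, adjusted p = 0.894, 95% interval -0.17 to 0.35). It was 0.062 without the no-manganese library C, and with 1 library left out it ran from 0.050 (without the 5 ppm library C) to 0.13 (without the 5 ppm library B). Ttc19 on the opposite strand shares 4.71% of its exon bases, at 4.19 to 5.01 RPKM. If strand was not used in counting, which the sources used here do not say, reads of the shared bases cannot be assigned to one of the genes.

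Zip102B is the fly counterpart of mammalian ZIP9. Zip102B (FBgn0039902) lies on the minus strand of chromosome 4 from 310930 to 314087, with 4 transcripts. It had 28.6 and 26.5 RPKM in libraries B and C without manganese, against 26.4 and 22.8 RPKM in libraries B and C with 5 ppm. The diets did not overlap, yet the no-manganese library C and the 5 ppm library B were nearly equal. The log2 fold change was 0.16 ± 0.12 SE (limma, adjusted p = 0.839). It was 0.21 without the no-manganese library C, and with 1 library left out it ran from 0.061 (without the 5 ppm library C) to 0.26 (without the 5 ppm library B).

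foi, short for fear of intimacy, encodes a zinc transporter of the cell surface that is needed for gonad formation and tracheal branching in fly embryos. foi (FBgn0024236) lies on the plus strand of chromosome 3L from 8525244 to 8534503, with 4 transcripts. It had 11.3 and 14.4 RPKM in libraries B and C without manganese, against 10.4 and 12.2 RPKM in libraries B and C with 5 ppm. The libraries of the 2 diets interleaved. Its log2 fold change of 0.17 ± 0.15 SE (limma, adjusted p = 0.873) was 0.0028 without the no-manganese library C, 0.064 without the 5 ppm library B and 0.33 without the no-manganese library B.

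The remaining members, Zip48C and Zip88E, are named as ZIP family genes and no further role is given here. Zip48C (FBgn0033665) is a gene of 1 exon on the plus strand of chromosome 2R from 11899517 to 11901394. It had 14.2 and 12.4 RPKM in libraries B and C without manganese, against 8.99 and 11.6 RPKM in libraries B and C with 5 ppm. Both no-manganese values were higher, and the nearest values of the diets, both from libraries C, were less than 1 RPKM apart. The mean was 13.3 ± 1.30 RPKM without manganese and 10.3 ± 1.81 RPKM with 5 ppm (SD, n = 2 each), a log2 fold change of 0.35 ± 0.15 SE (limma, adjusted p = 0.802). Without the no-manganese library C it was 0.44, and without the 5 ppm library B it was 0.19.

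Zip88E (FBgn0038312) lies on the plus strand of chromosome 3R from 15268662 to 15270532, with 1 transcript. It had 4.08 and 4.17 RPKM in libraries B and C without manganese, against 5.14 and 4.94 RPKM in libraries B and C with 5 ppm. The libraries of each diet lay close together, on 164 to 213 reads each, and the no-manganese values were the lower ones. The mean was 4.13 ± 0.0666 RPKM without manganese and 5.04 ± 0.140 RPKM with 5 ppm (SD, n = 2 each), a log2 fold change of -0.24 ± 0.10 SE (limma, adjusted p = 0.802). Without the no-manganese library C it was -0.25. The 4 counting intervals overlapped, from 3.48 to 4.85 RPKM without manganese and from 4.30 to 5.92 RPKM with 5 ppm. Cp190 on the opposite strand shares 6.56% of its exon bases and was at 18.2 to 19.2 RPKM in all libraries.

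**Figure D3:**
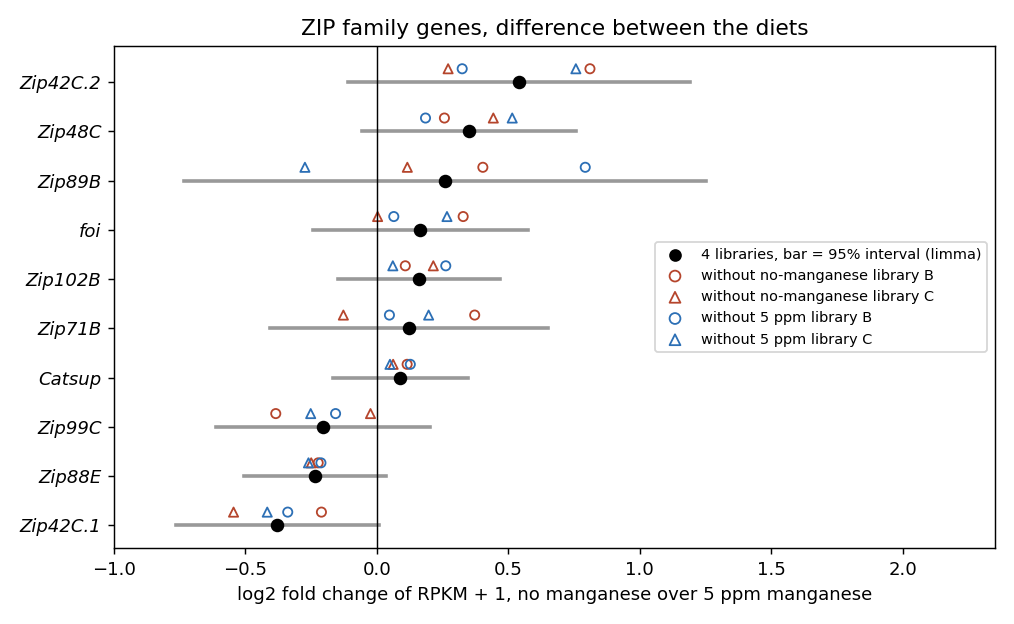
Log2 fold change of RPKM + 1, no manganese over 5 ppm manganese, for each ZIP family gene; black points are the limma estimates from 4 libraries, grey bars their 95% intervals, and open symbols the estimates with 1 library left out. Each of the 10 bars crosses 0, and the open symbols of Zip89B and Zip71B lie on both sides of it.

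The intervals also say what sizes of difference these data leave possible. All 10 included 0. A doubling of a member's mean RPKM on 5 ppm comes to 0.85 (Zip71B) to 0.99 (Zip99C) on the log2(RPKM + 1) scale, and the upper ends for Zip42C.2 and Zip89B reached beyond their own doubling. In this fit to all 4 libraries, the intervals of the other 8 members did not reach a 2-fold difference in either direction. No member's interval reached a 2-fold lower value without manganese. These intervals rest on 2 libraries per diet, whose spread may be technical, and include the no-manganese library C. A 2-fold effect of the diet is therefore not excluded for any member. The narrowest interval was that of Catsup. Within a diet, the 95% counting intervals of libraries B and C did not meet for 6 members without manganese and for 6 with 5 ppm. Read counts of 7 members came out whole in every library, from 164 reads for Zip88E upward; those of Zip99C, Zip102B and foi did not, and their intervals are approximate.

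**Figure D4:**
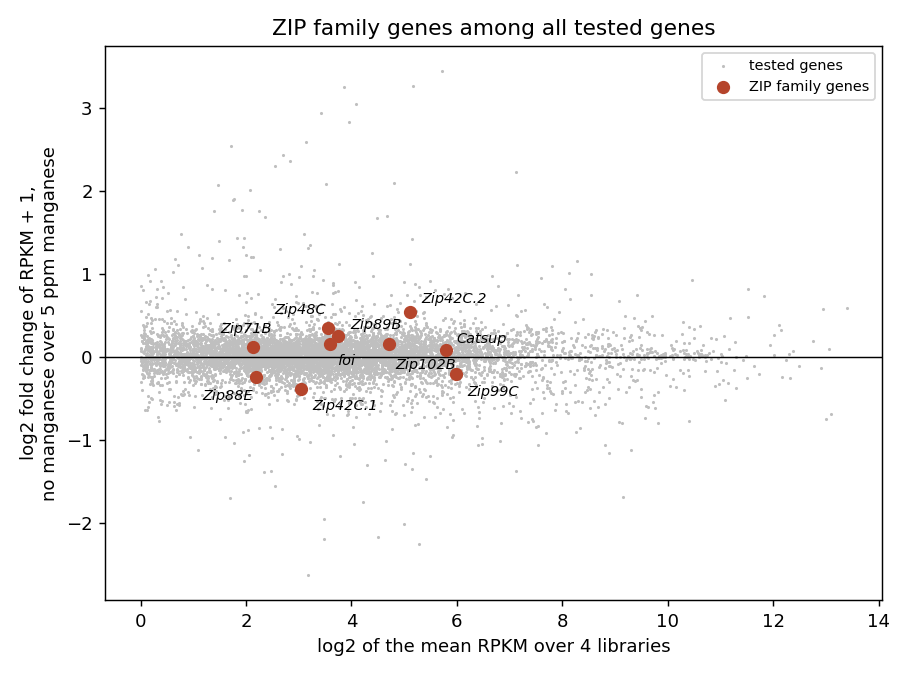
Log2 fold change of RPKM + 1, no manganese over 5 ppm manganese, against the log2 of the mean RPKM over 4 libraries, for the 7556 tested genes (grey) and the 10 ZIP family genes (red). The family spans low to high levels and lies between -0.38 and 0.54, inside the range of the other genes.

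The partners of the family in zinc and manganese handling gave no call either. Of 7 ZnT genes, which encode the exporters that oppose the ZIP proteins, 5 were tested, and 0 passed (4 higher and 1 lower, median log2 fold change 0.0089, limma, lowest adjusted p 0.829). ZnT63C, the exporter on the blood side of enterocytes, had 55.7 and 49.8 RPKM without manganese and 53.9 and 50.8 RPKM with 5 ppm, levels like those of Catsup. ZnT35C, known for zinc storage in the tubules, was below the level tested with 0.908 and 1.07 RPKM without manganese and 0.633 and 0.591 RPKM with 5 ppm. ZnT33D was listed at 0 in all libraries. Mvl, an NRAMP importer of manganese and iron, had a log2 fold change of -0.17 ± 0.16 SE. SPoCk, a Golgi pump for calcium and manganese, had one of 0.062 ± 0.10 SE, and 0 of these 2 passed (limma, lowest adjusted p 0.873). MTF-1, the transcription factor that senses zinc and copper, and the metallothionein genes gave 3 higher and 3 lower of 6 tested, with 0 passing (median 0.025, limma, lowest adjusted p 0.786). MTF-1 had 22.3 and 23.7 RPKM without manganese and 25.8 and 24.4 RPKM with 5 ppm. MtnA, a metallothionein gene, is named for having the lowest adjusted p of this list. It was higher in both no-manganese libraries, at 78.3 and 58.4 RPKM against 37.4 and 41.97 RPKM with 5 ppm (log2 fold change 0.76 ± 0.17 SE, limma, adjusted p = 0.786, 95% interval 0.30 to 1.22). MtnD was lower in both, at 218 and 248 RPKM against 282 and 288 RPKM (log2 fold change -0.29 ± 0.12 SE, limma, adjusted p = 0.802). MtnB, MtnC and MtnE overlapped between the diets. Over all tested genes, 21.7% lay higher without overlap and 15.2% lower. Of the 6 iron genes, 2 were higher and 4 lower and 0 passed (median -0.055, limma, lowest adjusted p 0.802).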

How the data were processed

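The 4 libraries are total RNA from guts, and the authors deposited their RPKM values as 1 table, a column for each. STAR 2.5.2b, DESeq2 and the build dm6 are listed in the submitters' processing notes without roles. The sources used here do not give the counting program, its strand setting or its annotation. Column names give the diet and a letter, so columns were assigned to diets, not to numbered samples. The Ensembl 115 annotation (dm6 coordinates) gave positions, symbols and exon lengths, and 13852 of 13932 identifiers had a symbol. Depth was found as the divisor that makes RPKM times exon length whole in low genes; 84.6% to 85.5% of values under 20 reads then lay within 0.02 of a whole number. Counting intervals are exact 95% Poisson intervals, and, like the value of 3 reads, cover counting error only.

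Values of log2(RPKM + 1) were tested with limma 3.58.1 (R 4.3.3) with a variance trend, 2-sided, with Benjamini-Hochberg adjustment over the 7556 genes with a mean of at least 1 RPKM and a threshold of 0.05. The fit was tested on simulated data with independent normal noise, in which no library stood apart as the no-manganese library C does. Members, lists and the genes named (all members, and genes of the listed zinc, manganese, copper and iron genes where a result turned on them) were chosen with earlier results of these data known. Muscle, enteroendocrine and copper cell markers summed to 521 to 587, 103 to 121 and 52.2 to 78.8 RPKM. The progenitor markers esg and Dl and the ovary marker nos were matched to no row by symbol and were not analysed here. Alternatives are other pseudocounts, filters, scalings and limma settings, a block, voom and each library left out. A result on 1 further gene is not reported here.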

Additional observations from a re-analysis of the deposited data

How the results depend on the processing

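Under 15 alternatives, 146 of 148 member values kept their direction, and 0 members passed under any of them. Zip71B and Zip88E had no value with a mean of at least 5 RPKM. The exceptions came from leaving out 1 library: Zip71B ran from -0.13 to 0.37 and Zip89B from -0.27 to 0.79 in log2 fold change. The members' median, 0.14 with all libraries, ran from 0.032 (without the no-manganese library C) to 0.19 (without the no-manganese library B), and was 0.055 without the 5 ppm library C. The number of genes past the threshold, 0 with all libraries, ran from 0 to 11 with 1 library left out: 11 (10 higher, 1 lower) without library B of the no-manganese diet and 5 without library C of that diet; the cause was not tested. When an arm has 1 library, it is assumed to vary like the other diet. At an unadjusted p under 0.05 (limma), 1 of 10 members was called with median scaling, beside 441 of all 7556 genes tested. With trimmed mean scaling it was 1 member beside 450 genes, and with quantile normalization 2 members beside 462 genes. Median, quantile and trimmed mean scaling moved the median of all genes by less than 0.024.

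The labels' replicate numbers could not be tied to columns, so the library letters served as the replicate block. With it 0 genes and 0 members passed, 878 genes and 2 members had an unadjusted p under 0.05 (limma), and the smallest adjusted p of a member was 0.243, for Zip42C.2. The difference between libraries B and C correlated between the diets across the 7556 genes (r = 0.34, genes not being independent replicates), but only 2 letters exist and nothing says that they pair the libraries.

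Each member value rests on 164 reads or more, and each diet on 2 libraries.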
